A study of Mus musculus with 4 samples.

Results

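The C/EBP transcription factors described here are Cebpa, Cebpb, Cebpd and Cebpg, 4 of the 31017 gene symbols in the deposited matrices. They were taken by symbol and followed across 4 single-cell RNA libraries of mouse testis and across cell classes set by marker transcripts, above all Sertoli cells. The members were chosen by their measured levels in these libraries, the ratios of culture to testis in Sertoli-like cells, so their differences between culture and testis are given as a description, with no test.

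C/EBP proteins are basic leucine zipper factors that bind DNA as dimers with each other or with relatives such as Atf4. Cebpb and Cebpd are known as the inducible members: cytokines of the IL-6 family acting through STAT3, and NF-kB, raise them in the acute phase response, and their targets include serum amyloid, lipocalin and chemokine genes. Cebpa is known for its part in liver, fat and myeloid cells, and Cebpg is a short, widely expressed member that pairs with the others and lacks a strong activation domain of its own. In the testis, Cebpb is known as a gene that follicle-stimulating hormone and cAMP induce in cultured Sertoli cells, the somatic cells of the seminiferous tubule that surround the germ cells.

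Each of the 4 groups was 1 library from C57BL/6 mice with an Acr-Gfp transgene, which all groups share. Testes taken 7 days postpartum (dpp) were cut up and kept in organ culture on agarose under a PDMS ceiling for 2 days or for 7 days, and the comparison testes were taken at 9 dpp and 14 dpp, so that culture time added to starting age gives the age of the matched testis. The labels attach the culture protocol to all 4 samples, do not give the number of mice, and describe the library kit in words about female gonads. Sox9, the Sertoli determinant, was nevertheless measured in every library, with 3941 UMIs after 2 days of culture, 3551 after 7 days, 5870 at 9 dpp and 3177 at 14 dpp. UMIs are unique molecular identifiers, the counted cDNA molecules.

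Each group being 1 library, replicate spread is not known: the intervals given below are 95% intervals for counting error only, and culture cannot be told apart from library. Where 4 values stand in a row with no other order named, they belong to the 2-day culture, then the 7-day culture, then 9 dpp and last 14 dpp. The early pair is the 2-day culture with 9 dpp, and the late pair the 7-day culture with 14 dpp. The libraries held 34491701 to 60829941 UMIs, lowest after 2 days of culture, and 4817 to 6892 kept cells. A cell was called Sertoli-like when at least 64 of 10000 UMIs came from 12 Sertoli markers and at least 3 of these markers were seen. This gave 1080 Sertoli-like cells after 2 days of culture, 514 after 7 days, 859 at 9 dpp and 789 at 14 dpp, with median depths of 3150.5, 9053, 13986 and 8864 UMIs. All 12 markers were detected in each of these groups, with summed levels from 18760 to 27617 CPM, the UMIs of a gene or list per 1000000 UMIs of the class. Cells just above the cut numbered 74, 16, 2 and 2, and cells just below it 54, 6, 1 and 40. The median Sertoli-like cell had 3.10, 2.06, 1.61 and 5.51 germ marker UMIs per 10000, at most 0.668 stromal or myoid ones, and none from Leydig, pericyte, endothelial or macrophage markers. Pairs of libraries shared 35 to 86 cell barcodes. When the cells were clustered, the Sertoli-like cells of culture and testis lay in different clusters. Cluster 8 held 487 of the 514 cells of day 7 and 636 of the 1080 of day 2, and a further 438 of the latter were in cluster 16, which has no class by its markers. Cluster 12 held 832 of the 859 cells of 9 dpp, and cluster 14 held 736 of the 789 of 14 dpp.

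On GRCm38, Cebpb (ENSMUSG00000056501) lies at chr2:167688915-167690418 on the plus strand as a single exon, and Cebpd (ENSMUSG00000071637) at chr16:15887286-15891031 on the plus strand. Cebpg (ENSMUSG00000056216, minus strand) at chr7:35046422-35056573 and Cebpa (ENSMUSG00000034957, plus strand) at chr7:35119293-35121928 are neighbours, 62719 bases apart. Cebpd overlaps Spidr on the opposite strand over 1808 bases at its 3′ end, and Cebpb overlaps Tmem189 on the opposite strand over 908 bases. The sources used here do not state whether counting used the strand. In Sertoli-like cells Spidr stood at 18.6, 8.03, 10.7 and 6.87 CPM, and Tmem189 at 22.4, 36.8, 20.4 and 39.8 CPM.

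The start regions of Cebpb and Cebpg are shown because the first differed strongly between culture and testis and the second did not in the early pair. RefSeq (GRCm38.p6) windows of 250 bases before to 50 bases after the start matched 3 of the 4 members, Cebpa, Cebpb and Cebpg. Capitals mark TGACG or its reverse complement CGTCA, the core of the cAMP response element, and TATAAA in Cebpb (chr2:167688665-167688964, plus strand), and CCAAT in its reverse form ATTGG in Cebpg (chr7:35056517-35056816, minus strand, written along the gene):
Cebpb: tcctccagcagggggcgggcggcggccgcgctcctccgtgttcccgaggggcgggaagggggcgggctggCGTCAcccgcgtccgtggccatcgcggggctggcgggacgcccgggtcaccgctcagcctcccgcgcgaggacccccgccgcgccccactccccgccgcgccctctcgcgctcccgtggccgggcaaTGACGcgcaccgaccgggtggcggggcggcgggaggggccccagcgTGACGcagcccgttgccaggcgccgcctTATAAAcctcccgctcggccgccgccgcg
Cebpg: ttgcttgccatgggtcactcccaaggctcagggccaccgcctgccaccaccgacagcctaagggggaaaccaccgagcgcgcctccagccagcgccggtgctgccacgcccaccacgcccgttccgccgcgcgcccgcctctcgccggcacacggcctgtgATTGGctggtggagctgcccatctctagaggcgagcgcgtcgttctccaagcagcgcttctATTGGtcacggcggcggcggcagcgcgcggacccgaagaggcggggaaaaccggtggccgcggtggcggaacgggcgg
The Cebpb window held 3 TGACG cores, starting 180, 53 and 7 bases before the gene start, on either strand. Such a core was present in 20.8% of 32851 promoter windows of the same length, and the Cebpa and Cebpg windows had none. The full element TGACGTCA (1.79% of windows), the C/EBP palindrome TTGCGCAA (0.183%) and the STAT-type site TTCNNNGAA (8.30%) matched none of the 3 windows. CCAAT, in 37.4% of windows, matched only the Cebpg window, at 89 and 28 bases before the start. TATAAA, in 13.6%, matched Cebpa and Cebpb once each, 30 bases before the Cebpa start and 21 bases after the Cebpb start. These matches describe letters on both strands of these windows and say nothing about binding.

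Cebpd, an inducible member, was nearly silent in Sertoli-like cells of the testis and well measured in those of the cultures. Its level was 234 CPM (223 to 247, 1475 UMIs) after 2 days of culture and 209 CPM (198 to 221, 1301 UMIs) after 7 days. At 9 dpp it was 2.59 CPM (1.83 to 3.55, 38 UMIs) and at 14 dpp 2.40 CPM (1.50 to 3.63, 22 UMIs). Both cultures were thus far above both testes, and the testes had overlapping intervals. These levels compare separate clusters of the class: within the largest cluster of each library Cebpd was at 239.8 CPM (cluster 8, 2 days), 211 CPM (cluster 8, 7 days), 2.47 CPM (cluster 12, 9 dpp) and 1.81 CPM (cluster 14, 14 dpp), and at 189 CPM in the 2-day cells of cluster 16. The log2 ratio was 6.50 (6.04 to 7.01) for the 2-day culture over 9 dpp and 6.44 (5.84 to 7.12) for the 7-day culture over 14 dpp. Ranked by log2 ratio of CPM plus 1 among 11956 genes, Cebpd stood at rank 4 in the first pair and at rank 1 in the second. In the first pair 6.32% of genes were at least 2-fold higher in culture and 5.86% at least 2-fold lower, and in the second 10.1% and 6.53%. Since the family was chosen for this difference, these ranks and shares are a description only.

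The in vivo level of Cebpd in Sertoli-like cells was close to that in germ-like cells of the same library, which were at 2.22 CPM at 9 dpp and 2.14 CPM at 14 dpp. Germ-like cells stood at 7.97 CPM after 2 days of culture and 3.79 CPM after 7 days. With the germ-like level taken off, the Sertoli-like level in vivo left 0.369 CPM at 9 dpp and less than the 0.327 CPM of 3 UMIs at 14 dpp, both within counting error of 0, so no ratio is read from that subtraction. Stromal markers in Sertoli-like cells were at 1.06% of their stromal level after 2 days of culture, 0.375% after 7 days, 0.369% at 9 dpp and 0.214% at 14 dpp. The same shares of the stromal Cebpd level are 4.71 CPM after 2 days of culture and 1.66 CPM after 7 days.

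**Figure D1:**
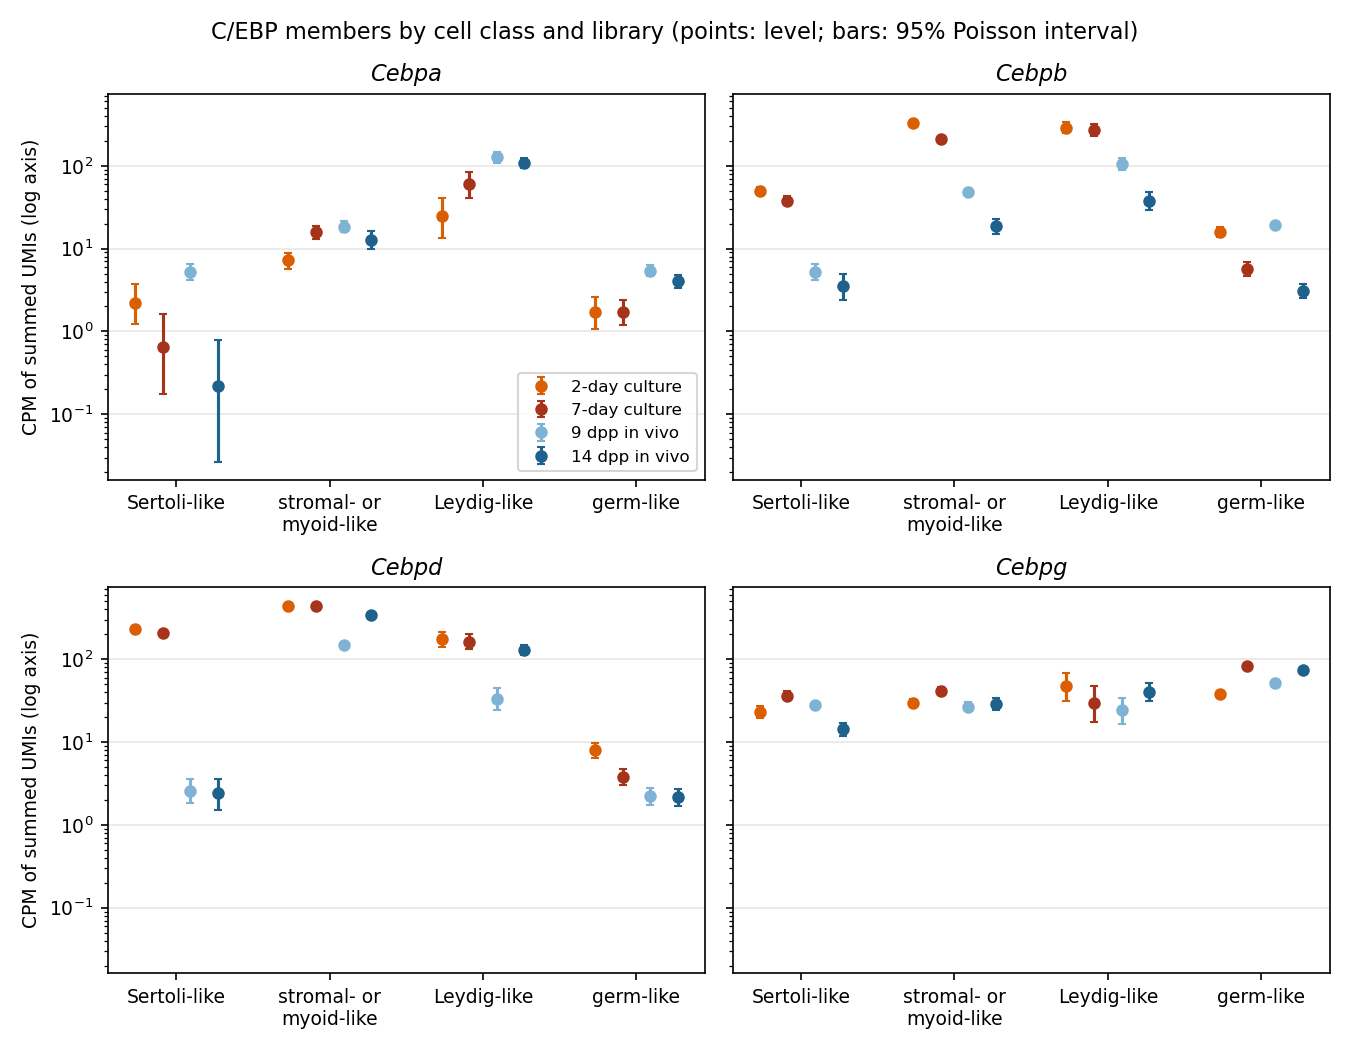
CPM (log axis) of each member in summed cells of 4 classes and 4 libraries, with 95% Poisson intervals for counting error. Cebpd in Sertoli-like cells was 234 and 209 CPM in the cultures and 2.59 and 2.40 CPM in vivo, whereas Cebpg stayed between 14.3 and 82.8 CPM in all classes drawn.

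Among single Sertoli-like cells thinned to 2000 UMIs each, a Cebpd UMI was seen in 212 of 667 cells of the 2-day culture (31.8%, exact Clopper-Pearson interval 28.3 to 35.5) and in 116 of 493 of the 7-day culture (23.5%, 19.9 to 27.5). At 9 dpp 2 of 844 cells had such a UMI (0.237%), and at 14 dpp 3 of 718 (0.418%). Thinned germ-like cells had 1.50%, 1.03%, 0.284% and 0.444%. The in vivo Sertoli-like shares were thus no higher than the germ-like ones, and the culture shares were above them. Free RNA itself was not measured. Without thinning, the Sertoli-like shares were 45.4%, 49.4%, 3.61% and 2.03%. Thinning left out 413, 21, 15 and 71 shallower cells.

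Most cultured Sertoli-like cells with Cebpd held 1 UMI of it after thinning, 144 of 212 after 2 days and 76 of 116 after 7 days. At least 3 UMIs were found in 27 cells after 2 days (4.05%) and 14 after 7 days (2.84%), with maxima of 6 and 20 UMIs in a cell. The level was of the same order at all depths after 2 days of culture, where Cebpd was at 209 CPM in the 413 cells under 2000 UMIs, 280 CPM from 2000 to 5000, 204 CPM from 5000 to 10000 and 241 CPM above that. In the 7-day culture the corresponding bins held 215, 201, 122 and 229 CPM, the first from 21 cells with 5 UMIs of the gene.

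**Figure D2:**
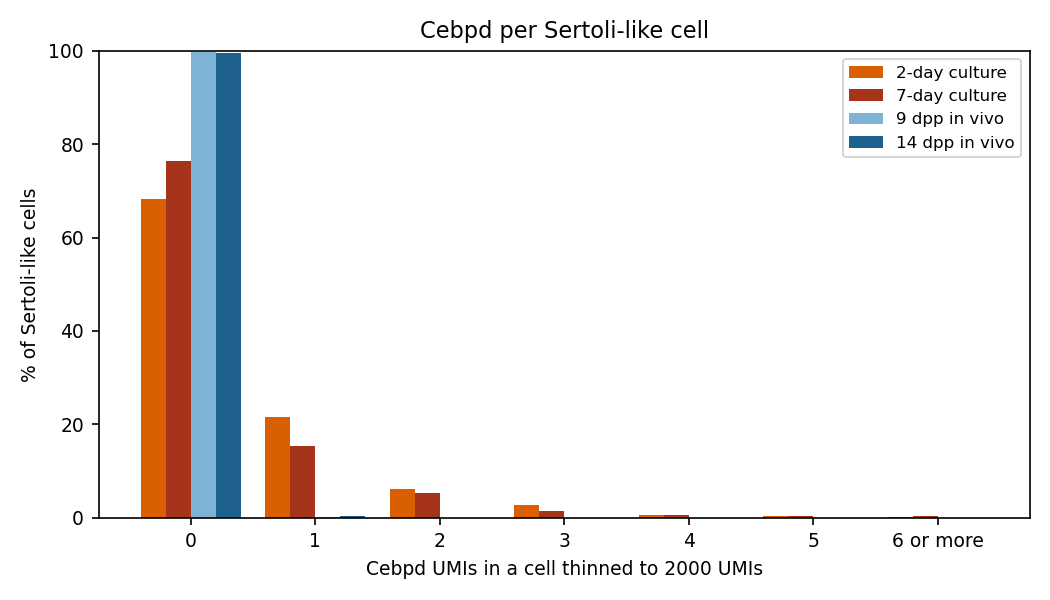
Share of Sertoli-like cells (percent) by number of Cebpd UMIs after thinning each cell to 2000 UMIs, for the 4 libraries. At least 1 UMI was found in 31.8% and 23.5% of cells in the 2-day and 7-day cultures and in 0.237% and 0.418% at 9 and 14 dpp.

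Cultured Sertoli-like cells with a Cebpd UMI held more of some genes of the lists than those without, and not of others. After 2 days of culture, Socs3, the feedback inhibitor of STAT3 signalling, was at 94.3 CPM in thinned cells with Cebpd and 41.8 CPM in the others. The same cells had 257 against 103 CPM of Lcn2, the iron carrier lipocalin, and 267 against 157 CPM of Cxcl1, a neutrophil chemokine. Saa3, a serum amyloid, was at 382 against 335 CPM and C3, a complement component, at 61.3 against 44.0 CPM. After 7 days Socs3 was at 134 against 34.5 CPM, Cxcl1 at 138 against 47.7 CPM and Lcn2 at 64.7 against 37.1 CPM. Saa3, at 17.2 CPM in either set of cells, and C3, at 4.31 against 7.96 CPM from 7 UMIs in all, were not higher with Cebpd there. Cst9, a Sertoli marker used in the class rule, went the other way, with 873 against 1424 CPM at 2 days and 1909 against 2830 CPM at 7 days. Amh, another such marker, was at 25.9 against 45.1 CPM at 2 days and 129 against 134 CPM at 7 days. Fos was at 568 against 559 CPM at 2 days and 3078 against 1939 CPM at 7 days. Hp was at 21.2 against 14.3 CPM at 2 days and, from 1 UMI, at 4.31 against 0 CPM at 7 days. Cebpb was seen in 9.91% of cells with Cebpd and 6.37% of those without at 2 days, and in 8.62% and 5.04% at 7 days, from 21 and 10 cells with both genes. These genes were picked after the data were seen, and cells of 1 library are not replicates.

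Cebpb, the other inducible member, was also higher in cultured Sertoli-like cells, though less so than Cebpd in both pairs. It stood at 50.05 CPM (44.7 to 55.9, 315 UMIs) after 2 days of culture and 38.1 CPM (33.4 to 43.2, 237 UMIs) after 7 days. In vivo it was 5.24 CPM (4.14 to 6.55, 77 UMIs) at 9 dpp and 3.49 CPM (2.39 to 4.93, 32 UMIs) at 14 dpp. Each culture was above both testes, with no overlap of the counting intervals. The log2 ratio was 3.25 (2.89 to 3.63) in the early pair and 3.45 (2.91 to 4.03) in the late pair, rank 99 and rank 81 of 11956 genes on the CPM plus 1 scale.

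Germ-like cells held Cebpb themselves, at 15.8, 5.68, 19.1 and 3.10 CPM. The Sertoli-like level lay below the germ-like one at 9 dpp and within counting error of it at 14 dpp, so no ratio is read after subtraction of the germ-like level. In cells thinned to 2000 UMIs the early ratio was 2.37. Thinned Sertoli-like cells with a Cebpb UMI made up 7.496% and 5.88% in the 2 cultures and 1.54% and 0.418% in vivo, against 3.22%, 0.865%, 3.20% and 0.416% of germ-like cells. The in vivo shares were thus at or below the germ-like ones.

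Cebpa was scarce in Sertoli-like cells, with 14 UMIs after 2 days of culture (2.22 CPM, 1.22 to 3.73) and 4 after 7 days (0.642 CPM, 0.175 to 1.64). At 9 dpp there were 77 UMIs (5.24 CPM, 4.14 to 6.55) and at 14 dpp 2 UMIs (0.218 CPM, 0.0264 to 0.788). The 9 dpp level was the highest of the 4 and near the 5.43 CPM of germ-like cells in that library. The log2 ratio was -1.24 (-2.17 to -0.40) for the 2-day culture over 9 dpp, and 1.56 (-1.24 to 5.03) in the late pair, where 6 UMIs in all cannot show a direction. With the germ-like level subtracted nothing is left at 9 dpp, and the direction cannot be read.

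Cebpg did not share the pattern of Cebpb and Cebpd. In Sertoli-like cells it was at 23.4 CPM (19.7 to 27.5, 147 UMIs) after 2 days of culture, 36.5 CPM (31.9 to 41.5, 227 UMIs) after 7 days, 27.9 CPM (25.2 to 30.7, 409 UMIs) at 9 dpp and 14.3 CPM (11.9 to 16.9, 131 UMIs) at 14 dpp. The 2-day culture and 9 dpp had overlapping intervals, whereas the 7-day culture was above 14 dpp. The log2 ratio was -0.25 (-0.54 to 0.02) in the early pair and 1.35 (1.04 to 1.67) in the late pair. The second value shrank to 0.56 with cells classed by clusters, to 0.90 with a stricter marker cut and to 0.53 when 14 dpp cells with both Sertoli and germ markers were counted in. Germ-like cells held more Cebpg than Sertoli-like cells in each library, with 38.2, 82.8, 52.0 and 74.7 CPM.

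**Figure D3:**
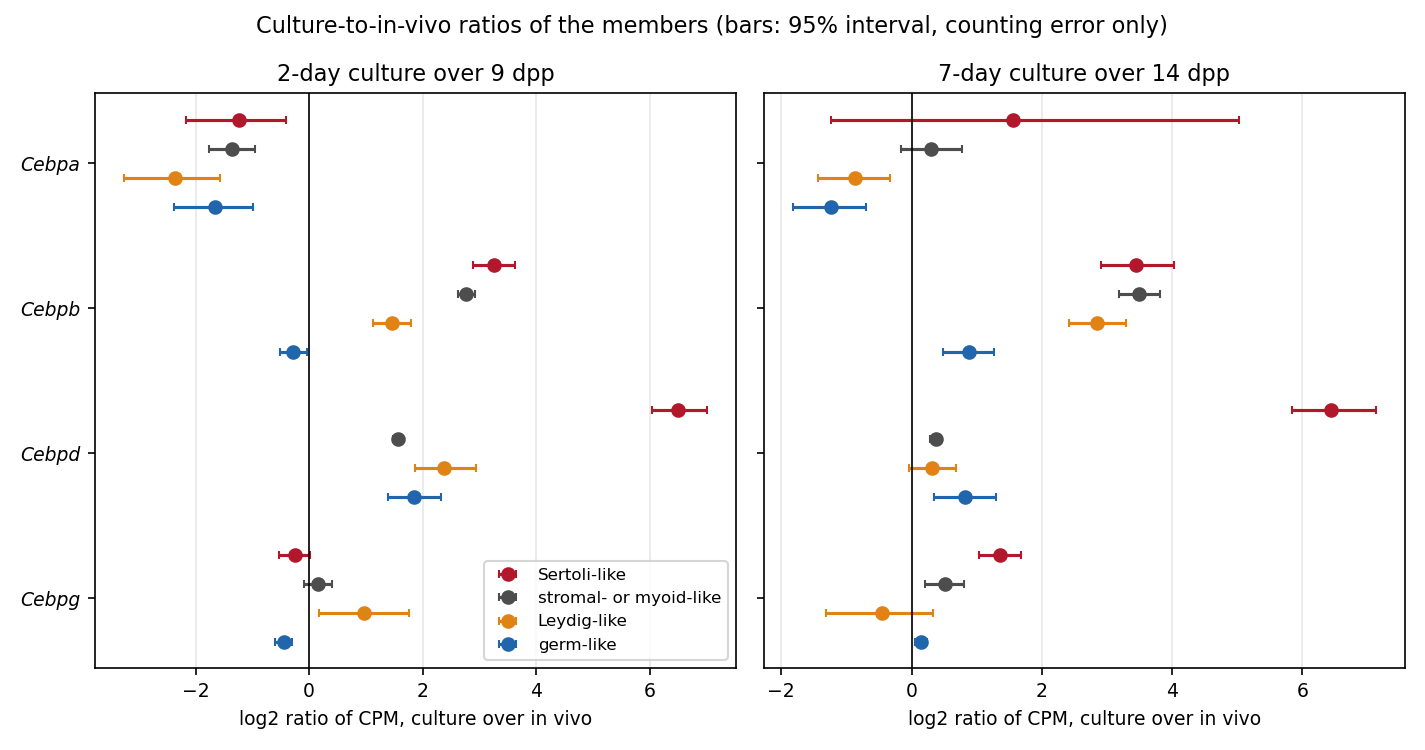
Log2 ratio of CPM, culture over matched testis, for each member in 4 cell classes, with 95% intervals for counting error. The Sertoli-like ratios of Cebpd, 6.50 and 6.44, lie apart from the Cebpd ratios of the other 3 classes, none of which is above 2.38.

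Outside the Sertoli-like cells, Cebpd was already present in vivo. In stromal- or myoid-like cells it stood at 442 CPM in both cultures, 150 CPM at 9 dpp and 342 CPM at 14 dpp. Here too the cells of culture and testis lay in separate clusters. Clusters 2 and 7 held 1141 and 1303 of the 2495 cells of day 2, clusters 2 and 13 held 663 and 764 of the 1490 of day 7, and clusters 5 and 9 held 756 and 738 of the 1507 of 9 dpp and 632 and 425 of the 1102 of 14 dpp. The top genes of cluster 5 included the myoid markers Acta2, Myh11 and Cnn1, and it held 1 and 14 of the cultured cells of the class. The make-up of the class thus differed between culture and testis. Leydig-like cells were nearly all in cluster 17 in each library. The culture levels were alike, and the testis levels differed by age, with a log2 ratio of 1.19 (1.09 to 1.29) for 14 over 9 dpp. The culture ratio was 1.56 (1.48 to 1.65) in the early pair and 0.37 (0.28 to 0.46) in the late pair. Background shares in this class were 5.87% higher and 7.15% lower by at least 2-fold in the early pair, and 5.02% and 4.49% in the late pair. Split by whether stromal or myoid markers led, the 7-day ratio was -0.16 on the stromal side, where 14 dpp reached 474 CPM, and 1.09 on the myoid side, where 14 dpp was at 229 CPM. Leydig-like cells held 174, 163, 33.4 and 131 CPM of Cebpd, so that only the 9 dpp library stood clearly below the rest. Here the 14 over 9 dpp ratio was 1.97 (1.50 to 2.47), the 2-day ratio 2.38 (1.86 to 2.93) and the 7-day ratio 0.32 (-0.05 to 0.68).

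Cebpb in the stromal- or myoid-like and Leydig-like classes was higher in culture and lower with age in vivo. Stromal- or myoid-like cells had 325 CPM after 2 days of culture, 210 CPM after 7 days, 47.7 CPM at 9 dpp and 18.8 CPM at 14 dpp. The log2 ratio was 2.77 (2.63 to 2.92) in the early pair and 3.49 (3.18 to 3.81) in the late pair, close in size to the Sertoli-like ratios. Leydig-like cells, from 53 to 126 a library, had 289, 272, 105 and 37.8 CPM, with ratios of 1.45 (1.12 to 1.79) and 2.85 (2.42 to 3.29). From 9 to 14 dpp the log2 ratio of Cebpb was -1.35 (-1.69 to -1.02) in stromal- or myoid-like and -1.48 (-1.94 to -1.04) in Leydig-like cells, the opposite direction to Cebpd. In vivo testes thus ranked the 2 inducible members in opposite orders by age in both classes.

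Cebpa was highest in Leydig-like cells among the 4 larger classes in each library. Leydig-like cells held 126 CPM (108 to 147) at 9 dpp, 108 CPM (93.2 to 125) at 14 dpp, 59.6 CPM (41.3 to 83.3) after 7 days and 24.6 CPM (13.5 to 41.3) after 2 days of culture. Both cultures were below both testes, with log2 ratios of -2.35 (-3.26 to -1.57) in the early pair and -0.86 (-1.44 to -0.33) in the late pair. These rest on 14 and 34 UMIs in culture. In the early and late pairs, 10.7% and 9.13% of genes in this class were at least 2-fold lower in culture and 5.06% and 6.34% at least 2-fold higher. Within the stromal- or myoid-like class Cebpa lay on the stromal side, with 7.73, 21.7, 32.5 and 26.8 CPM, and the myoid side held 5, 0, 7 and 2 UMIs. The 2-day culture was again the lowest of the 4 on the stromal side, with a ratio of -2.07 (-2.49 to -1.67) to 9 dpp.

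Germ-like cells, the largest class, held little Cebpa or Cebpd and the largest share of the Cebpg UMIs in each library. Cebpb in them was highest at 9 dpp, and higher in cells led by premeiotic markers than in cells led by meiotic ones: 25.0 against 12.9 CPM at 9 dpp, 6.00 against 1.34 CPM at 14 dpp, 18.2 against 15.1 CPM after 2 days of culture and 14.0 against 3.58 CPM after 7 days. The premeiotic level exceeded the meiotic one in all 4 libraries, with overlapping intervals after 2 days of culture alone. Cebpa followed the same order in vivo, with 7.78 against 2.98 CPM at 9 dpp and 7.19 against 2.10 CPM at 14 dpp. Cebpg in meiotic cells was 37.8, 87.5, 41.6 and 79.5 CPM, so the later library of each setting was about as far above the earlier, with log2 ratios of 1.21 (1.04 to 1.38) in culture and 0.93 (0.80 to 1.07) in vivo. The matched pairs differed by -0.14 (-0.33 to 0.05) and 0.14 (0.04 to 0.24).

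The whole-library sums mix these classes. Cebpd was at 218, 134, 28.9 and 40.1 CPM over all kept cells and Cebpb at 142, 61.9, 24.2 and 6.13 CPM. Cebpa was at 4.45, 6.65, 10.6 and 7.88 CPM and Cebpg at 32.4, 64.3, 40.8 and 57.1 CPM. Stromal- or myoid-like cells made up 33.8%, 18.5%, 16.3% and 8.63% of all UMIs, and held most of the Cebpd UMIs in each library, from 61.2% to 84.5%. Sertoli-like cells held 21.05% of the Cebpd UMIs of the 2-day culture and 26.2% of those of the 7-day culture, but 2.29% at 9 dpp and 0.976% at 14 dpp. Their shares of all UMIs were 19.6%, 16.8%, 25.5% and 16.3%, so the Cebpd share after 2 days was close to the share of all UMIs. Of the Cebpb UMIs, germ-like cells held 41.3% at 9 dpp, beside 52.4% of all UMIs there. Stromal- or myoid-like cells held 77.2% of the Cebpb UMIs after 2 days of culture, beside 33.8% of all UMIs.

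**Figure D4:**
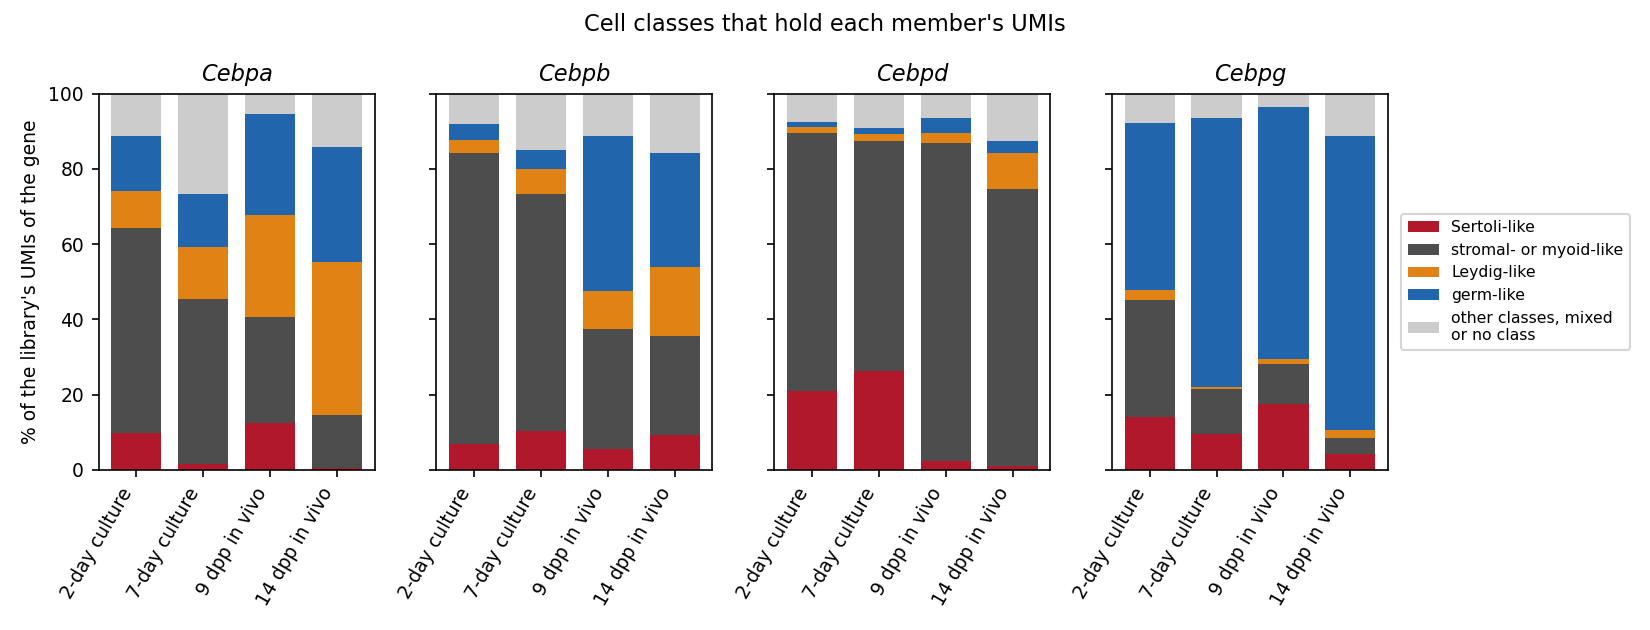
Share of each member's UMIs (percent of the library's UMIs of that gene) that lay in each cell class, for the 4 libraries. Sertoli-like cells held 21.05% and 26.2% of the Cebpd UMIs in the 2-day and 7-day cultures and under 3% in vivo, and germ-like cells held 44.6% to 78.1% of the Cebpg UMIs. Of all UMIs, Sertoli-like cells held 19.6% and 16.8% in the cultures and 25.5% and 16.3% in vivo, and germ-like cells 37.9% to 59.7%.

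Upstream of the inducible members, Sertoli-like cells themselves held few transcripts of the 8 ligands on the list. Only Il11 had the 50 UMIs needed for a ratio, through the testes alone, and it was at 1.59 and 0.963 CPM in culture against 13.7 and 3.38 CPM in the matched testes. Germ-like cells held far more Il11 in each library, with 17.6 and 16.9 CPM in culture and 288 and 127 CPM in vivo. In Sertoli-like cells Il6 had at most 0.159 CPM in any library, and Il1b and Ifng were at 0 in all 4. Il6 in stromal- or myoid-like cells was at 19.2 CPM after 2 days of culture, 0.727 CPM after 7 days and 0 in both testes. In this and the following lists, genes that reached 50 UMIs in the cultures or in the testes but not in both are left out of counts and medians, since the filter favours their direction. That choice came once the values were known. Of 11 receptors, Osmr and Tlr2 (reached in the cultures) and Il1rap (in the testes) were such genes. Counts and medians of the lists use the log2 ratio of CPM plus 1. Of the other 8 receptors, 0 were at least 2-fold higher and 1 lower in the early pair, and 2 were higher and 1 lower in the late pair. With nothing added to the CPM, Nr3c1 also passed the line in the early pair, so 1 was higher there. Of all genes, 6.32% and 10.1% were higher and 5.86% and 6.53% lower in the early and late pairs. The medians were 0.37 and 0.04, beside -0.10 and 0.01 for all 11956 genes, which include genes left out of the lists. Osmr, the oncostatin M receptor, was at 8.90 and 2.89 CPM in culture and at 0.0681 and 0 CPM in vivo. The glucocorticoid receptor gene Nr3c1 was at 20.97 and 26.5 against 10.0 and 11.2 CPM, and Fshr, the FSH receptor and a class marker, at 6.99 and 9.96 against 20.4 and 12.0 CPM.

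Of 12 signalling genes in Sertoli-like cells other than Socs3, 7 were at least 2-fold higher after 2 days of culture than at 9 dpp, and 2 after 7 days than at 14 dpp, with none lower in either pair. Over all genes 6.32% and 10.1% were higher and 5.86% and 6.53% lower. The list medians were 1.08 and 0.48. Socs3 had 50 UMIs only through the cultures. It stood at 48.8 and 68.4 CPM in culture and 1.36 and 2.29 CPM in vivo, a log2 ratio of CPM plus 1 of 4.40 in both pairs. Relb, an NF-kB subunit, was at 40.0 and 45.0 against 5.52 and 11.2 CPM, and Nfkbiz, an NF-kB cofactor, at 21.9 and 21.2 against 6.67 and 5.56 CPM. Stat3 was at 76.1 and 59.3 against 25.0 and 33.8 CPM, while Rela, at 74.8 and 77.2 against 75.3 and 89.0 CPM, was nearly level.

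The relatives and partners of the family differed less in the early pair than the inducible members did. Cebpe was at 0 in all Sertoli-like cells, and Ddit3, whose product CHOP dimerizes with C/EBP proteins, was at 64.5 and 77.9 CPM in culture and 46.1 and 45.6 CPM in vivo. Cebpz, which shares the name but is no leucine zipper factor, was at 43.1 and 55.6 against 59.8 and 50.5 CPM. Of 12 leucine zipper partners and regulators, Trib2 being left out, 3 and 5 were at least 2-fold higher in the early and late pairs and none lower, beside 6.32% and 10.1% of all genes higher and 5.86% and 6.53% lower. Their medians were 0.54 and 0.94. Fos stood at 516 and 1993 CPM in culture and 213 and 72.4 CPM in vivo, and Nfil3 at 46.2 and 57.8 against 21.7 and 9.27 CPM. Atf4, a partner of Cebpg, was at 120 and 199 against 94.99 and 94.6 CPM, log2 ratios of 0.34 and 1.07.

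Fos is among the immediate early genes that tissue dissociation is known to raise. Of 19 immediate early and handling genes other than Socs3, 6 were at least 2-fold higher in Sertoli-like cells of the 2-day culture than at 9 dpp and 18 in those of the 7-day culture than at 14 dpp, against 6.32% and 10.1% of all genes, with medians of 0.33 and 2.86. In 13 of the 19 the late log2 ratio was above the early one by over 1, as for Fos (1.27 and 4.76), Egr1 (0.32 and 3.55) and Junb (2.04 and 3.31). Of the others, those with a like ratio in both pairs included Ier3 (3.12 and 3.46), Zfp36 (3.08 and 2.86) and Klf2 (1.97 and 2.00). The part of handling in the Cebpb and Cebpd values was not tested.

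Of 23 genes known as acute phase and inflammatory C/EBP targets, 11 reached 50 UMIs in Sertoli-like cells. Most did so through the cultures alone, since 9 of the 11 had at most 3 UMIs at 9 dpp and 8 at 14 dpp, so the filter fixed their direction and no count or median is given. Lcn2 had 156 CPM at 2 days and 34.5 CPM at 7 days, against 0 and 0.545 CPM in the matched testes. Cxcl1 had 195 and 73.1 against 2.25 and 6.21 CPM. Cd14, the endotoxin coreceptor, had 65.8 and 17.3 CPM against 0 in both testes. Saa3 had 395 and 29.5 against 0.204 and 0 CPM. The list was chosen with earlier results of these data known and is no independent evidence of a direction.

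Some of these transcripts were near their level in germ-like cells. Saa3 in Sertoli-like cells of the 2-day culture was at 1.37% of its level in stromal- or myoid-like cells, which held 28869 CPM, and stromal markers were at 1.06%. Germ-like cells of the same library had 286 CPM of Saa3, and Hp, Ccl2 and Cxcl5 were at 1.12 to 1.32 times the germ-like level there. Lcn2 in Sertoli-like cells was at 57.6% of the stromal level at 2 days and 183% at 7 days, Cd14 at 112% and 48.7%, and Cxcl1 at 32.1% and 39.6%. Cebpd was at 53.0% and 47.2% and Cebpb at 15.4% and 18.1% of the stromal level.

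Other lists tied to the C/EBP genes showed mixed values in Sertoli-like cells. Over all genes, 6.32% and 10.1% were at least 2-fold higher and 5.86% and 6.53% lower in the early and late pairs. These shares stand beside each count that follows here. The integrated stress response is a pathway in which Atf4, Ddit3 and Cebpg take part. Of 11 of its genes other than Vldlr, 0 and 1 were at least 2-fold higher and 3 and 3 lower in the early and late pairs, with medians of -0.51 and -0.28. With 0.1 CPM added in place of 1, 3 were higher in the late pair. Asns, asparagine synthetase, was at 52.6 and 39.8 CPM in culture and 148 and 209 CPM in vivo, and Sesn2 at 12.2 and 35.8 against 37.2 and 103 CPM. Among 8 glucocorticoid-responsive genes other than Cebpd, which is on that list, 2 and 1 were higher and 1 and 1 lower, with medians of 0.41 and 0.25. Per1 was lower in culture, at 14.8 and 20.1 against 31.4 and 47.0 CPM, and Dusp1 higher, at 52.0 and 60.2 against 21.1 and 13.3 CPM. Of 8 FSH and cAMP genes, 0 and 1 were higher and 3 and 3 lower, with medians of -0.35 and -0.18. Inha, the inhibin alpha chain, was at 629 and 1001 against 1836 and 2365 CPM, and Pde4b at 5.72 and 3.37 against 19.7 and 34.9 CPM. Only 3 adipogenic and metabolic targets had 50 UMIs, Fabp4 and Plin1 among them through the testes alone, so no count is given. Plin1, the lipid droplet perilipin, was at 0.794 and 0.482 against 8.58 and 5.02 CPM.

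**Figure D5:**
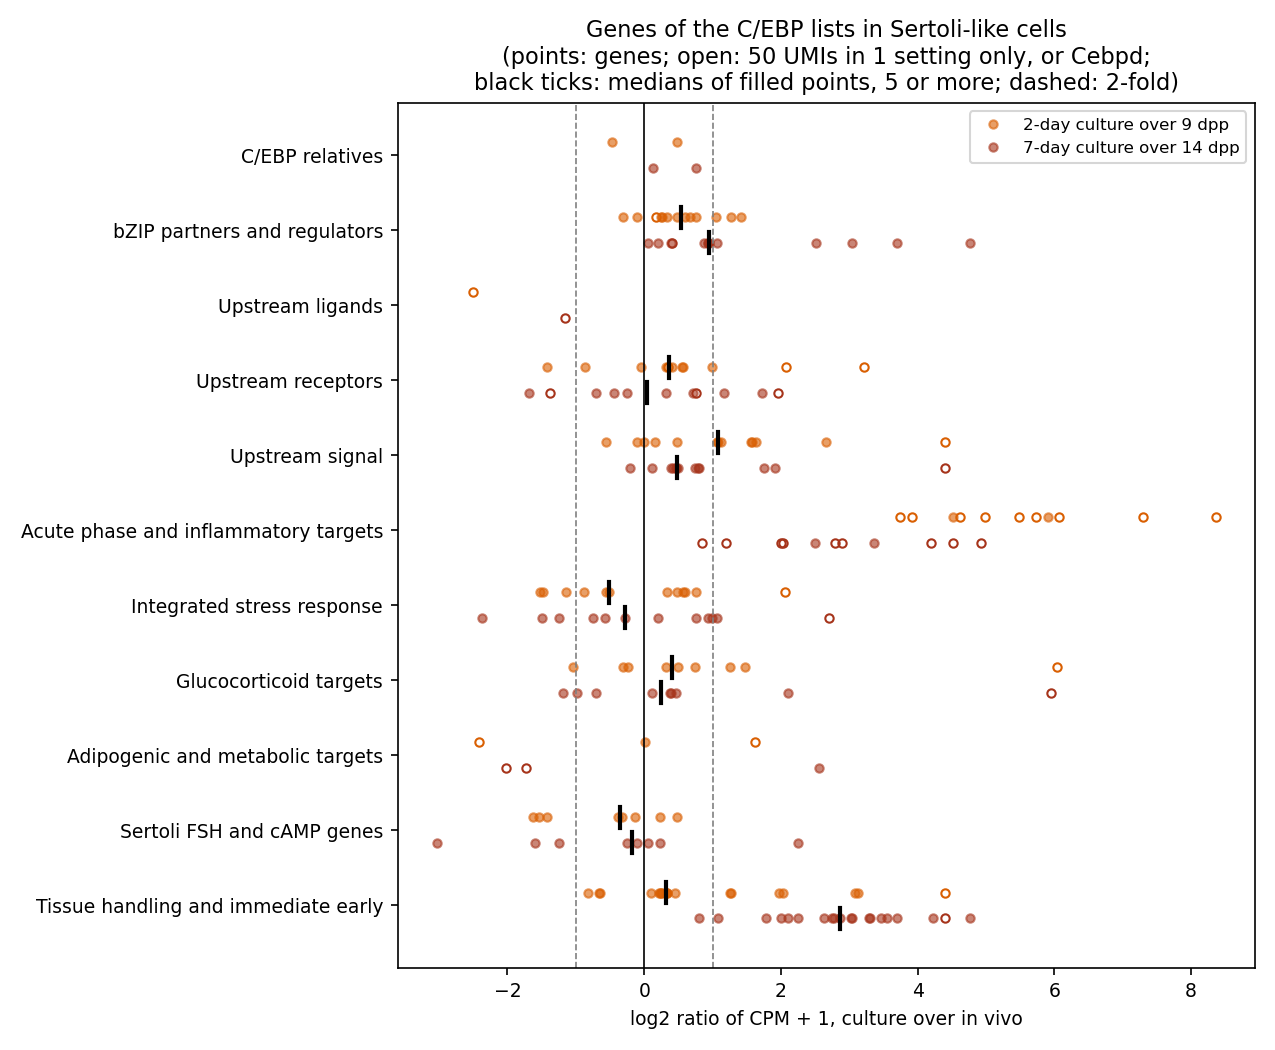
Log2 ratio of CPM plus 1, culture over matched testis, in Sertoli-like cells for each measured gene of 11 lists (points) with 2-fold lines (dashed). Open points are genes with 50 UMIs in the cultures or in the testes but not in both, and Cebpd, and black ticks are medians of the filled points where there are 5 or more. The filled points of the integrated stress response lie on both sides of 0, with Asns at -1.48 and -2.37 and Atf4 at 0.34 and 1.07.

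Across 16 sums of 4 classes in 4 libraries, the gene most like Cebpd among 16261 was Socs3, with a Pearson r of 0.98 on log2 CPM plus 1, followed by Tspan4 (0.97), Tap2 (0.97), Casp12 (0.97) and C1qtnf1 (0.96). For Cebpb the nearest were Cd44, Clca3a1, Serpinb9, Cxcl10 and Bst2, with r between 0.91 and 0.92. The nearest to Cebpa were Acat1, Itih2, Esr1, Zfp521 and Dnah2os (0.95 for each, to 2 decimals), and to Cebpg Rpl22, Gm28424, Atf1, 4930453N24Rik and Vps36 (0.83 to 0.86). Among the members, Cebpb and Cebpd had an r of 0.80, Cebpa and Cebpb 0.58, Cebpa and Cebpd 0.41, and Cebpg was at -0.03, -0.14 and -0.24 with Cebpa, Cebpb and Cebpd. Sums of the same library share its depth and free RNA, so these values describe likeness only.

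The 9 macrophage markers summed to 2.07 CPM after 2 days of culture, 8.19 CPM after 7 days, 9.87 CPM at 9 dpp and 36.3 CPM at 14 dpp in Sertoli-like cells, with 6, 4, 1 and 2 of them at 0. Most of these UMIs were of Fcer1g, with 10, 44, 111 and 316, and the other 8 markers summed to 0.477, 1.12, 2.32 and 1.85 CPM. Neutrophil markers had at most 2 UMIs in any library and mast cell markers none. Erythroid genes, 4 in all, summed to 112, 0, 10.4 and 278 CPM, and Leydig markers to 47.7, 17.0, 23.4 and 19.5 CPM. Their part in the results was not tested.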

How the data were processed

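The deposited matrices hold raw UMI counts per gene and barcode, made by the authors; per the file headers the software was Cell Ranger 3.0.2, and the genome was mm10 per the submitters' processing notes. The annotation and the use of strand are not given in the sources used here. UMIs of symbols with several identifiers were added. Of 31053 identifiers, 31011 were found in GENCODE M21, from which positions were taken. Barcodes under 500 genes or over 20% mitochondrial UMIs were dropped, and Scrublet calls (scanpy 1.11.5, expected rate 6%; 1.87% to 3.34% of cells) were removed. Cells were classed by marker UMIs per 10000 UMIs, with at least 3 markers seen (Sertoli 64, germ 32, Leydig 16, stromal or myoid 32, pericyte 8, endothelial 16, macrophage 16). Leydig, pericyte, endothelial and macrophage classes went before the stromal or myoid class, and cells of more than 1 class were left out. These cuts were set after the data were seen. CPM are a class's UMIs of a gene in a library over all UMIs of that class there, with exact Poisson intervals (SciPy 1.17.1). Ratios have exact conditional binomial intervals. List ratios used log2(CPM + 1) over genes with at least 50 UMIs in the class over the 4 libraries, which understates the change of low genes.

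Members and lists were chosen with earlier results of these data known. All 4 members are named. Of each list, up to 4 genes with the same sign and the largest smaller ratio over both pairs are named, and genes tied to a member by role; Stat3, Rela, Il1rap, Trib2, Fabp4, Egr1, Klf2, C3, Hp, Ccl2, Cxcl5, Il6, Il1b and Ifng were named after their values were seen. With 1 library per group, replicate spread within a group is not known, and no test between groups was made. The ratio code was tested on simulated counts. TMM factors came from edgeR 4.0.16. Alternatives were other scaling, cell filters, class rules, pseudocounts, thinning to 2000 UMIs and subtraction of germ-like CPM.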

Additional observations from a re-analysis of the deposited data

How the results depend on the processing

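Leaving the germ-like subtraction aside, the Sertoli-like log2 ratios kept their sign under 10 alternatives, from 6.04 to 7.66 (early pair) and 5.95 to 6.77 (late pair) for Cebpd and from 2.37 to 3.55 and 3.12 to 4.00 for Cebpb. Of 84 recomputed Sertoli-like values, 73 stayed inside the counting interval. Outside it were 6.04 with 1 CPM added and 7.66 in thinned cells for Cebpd, and 2.37 in thinned cells for Cebpb, all in the early pair. The subtraction gave 9.26 and 9.29 for Cebpd, 7.39 and 6.37 for Cebpb and 1.29 for early Cebpa, of opposite sign to the main ratio. These 5 values divide by in vivo remainders within counting error of 0 or set to 3 UMIs, and are neither estimates nor bounds. The 7-day Cebpg ratio was 0.56 with clusters, 0.90 with the stricter cut and 0.53 with mixed cells counted (the last chosen once the data had been seen).

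In other classes and whole libraries, 87 of 114 recomputed values stayed inside the counting interval of the main ratio, and 21 lay outside it. The remaining 6 had the opposite sign to a main ratio whose interval excluded 0. Splits chosen after the data were seen gave 1.19 for Cebpa on the myoid side and 0.22 for Cebpb in meiotic cells in the early pair. In the late pair they gave -0.16 for Cebpd on the stromal side and, in premeiotic cells, -0.18 for Cebpd and -0.0595 for Cebpg. The subtraction gave 0.36 for whole-library Cebpa in that pair. Of 124 recomputed list counts, set against those over all measured genes of a list, 115 stayed within 1.5 times. Leaving out members and genes with 50 UMIs in 1 setting alone, as printed above, took the receptors from 2 to 0 higher (early) and 2 to 1 lower (late), stress response genes from 1 to 0 (early) and 2 to 1 (late) higher, and glucocorticoid genes from 2 to 1 higher (late). With 0.1 CPM added and all genes counted, the late pair had 4 stress response genes higher in place of 2 and 2 glucocorticoid genes lower in place of 1. With a 10-UMI filter, the early pair had 1 ligand higher in place of 0 and 2 adipogenic genes in place of 1. TMM scaling moved all ratios by at most 0.15, in the early stromal- or myoid-like pair, with 0.14 for whole libraries. The subtraction gave no value for Cebpg in Sertoli-like cells, whose level lay below germ-like cells. No paired test was made, since the early and late pairs differ in age and culture time and each group has 1 library. With 1 library per group, none could be left out without losing its group. Depth limits Cebpa most, with 2 to 77 UMIs a library in Sertoli-like cells.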

Other observations

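The rarer classes had under 50 cells in at least 1 library, so their levels are given without ratios. Macrophage-like cells (10, 18, 27 and 47 cells, by library) held 848 CPM of Cebpb (74 UMIs), 198 CPM, 163 CPM and 41.9 CPM. Their Cebpa, a myeloid factor, had 0, 45, 18 and 19 UMIs. These counts come from class totals of 87247, 652289, 269892 and 334079 UMIs, so they do not rank the libraries by level. Their Cebpd was at 11.5 CPM from 1 UMI, 76.7, 96.3 and 150 CPM. Endothelial-like cells (47, 21, 19 and 27) had 135, 37.8, 85.2 and 253 CPM of Cebpd, the highest level being at 14 dpp, and at most 1 UMI of Cebpa in any library. Pericyte-like cells (30, 42, 48 and 60) had 288, 132, 77.7 and 39.5 CPM of Cebpb and 210, 84.9, 59.0 and 101 CPM of Cebpd.

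Cebpe, the granulocyte member of the family, had 16, 60, 14 and 33 UMIs over all kept cells of the 4 libraries, 0.498, 1.62, 0.243 and 0.587 CPM, and none in Sertoli-like cells.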
